A study of Homo sapiens with 6 samples.

Results

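The G2/M and mitosis genes were examined in SU-DHL-2 cells, an established cell line of diffuse large B-cell lymphoma (DLBCL), on 3 arrays of cells cultured with IL-17A (200 pg/ml) and 3 arrays of control cells cultured without it, each for 72 h in the same serum-containing medium. The sample labels word this treatment as in vivo, whereas the study's methods describe cell culture. The list named 50 genes for mitotic cyclins, kinases, kinetochore, spindle and cytokinesis proteins, and a gene was counted as a member where a probe of the 1-colour Whole Human Genome array carried a RefSeq accession of that gene. This held for 49 of the 50 genes, among 14747 genes with a tested probe, and no probe was named for UBE2C. The 49 members had 60 probes, all of them tested, with 1 probe for 39 members, 2 for 9 and 3 for MKI67. Each member is represented by 1 probe, the brightest of those tested. Signals are log2 intensities after quantile normalization of the 6 arrays, and a probe was tested when detected, that is positive, significant and well above background, on at least 3 of them. The study added IL-17A because it had linked this cytokine to the growth of DLBCL cells, and the question here is whether transcripts of the dividing cell differed after 72 h. The labels do not say whether the 3 samples of a group came from separate cultures, so that p-values measure the spread between these samples, which may be technical.

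Cells enter mitosis when CDK1 bound to a B-type cyclin becomes active. Kinetochores then attach the chromosomes to the spindle, a checkpoint holds back the anaphase-promoting complex (APC/C) until every chromosome is attached, and CDC20 lets the complex destroy securin and cyclin B. Kinesins, PRC1 and the centralspindlin complex build the midzone at which the cell divides. Transcripts of this machinery rise together in G2, through promoters that typically hold a cell cycle genes homology region (CHR) and CCAAT boxes. The CHR is bound by complexes with a MuvB core, which repress in resting cells and, with B-MYB and FOXM1, activate in G2, and the CCAAT box by NF-Y. Levels of these transcripts are widely read as a sign of proliferation.

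Most members held these promoter elements, which the choice of genes had not used. In the RefSeq promoter table of GRCh38.p14, which gives 250 bases before to 50 bases after a gene's start, 42 of the 50 genes had an entry. AURKA, BIRC5, BUB3, FOXM1, RACGAP1, TPX2, TTK and UBE2C had none. The usual forms of the CHR are TTTGAA and, less often, the palindrome TTCGAA. Either form, on either strand, stood in a promoter of 33 of the 42 members (78.6%), against 15.95% of the 11650 tested genes with an entry and 16.4% of all 35116 promoters. CCAAT stood in 36 members (85.7%), against 42.7% of the tested genes and 34.6% of all promoters. Both were found in 29 members (69.0%), against 6.66% of the tested genes. The matches lay near the start. Of the 52 promoters of members, since a few genes have several starts, 40.4% had a CHR match in the 50 bases from -50 to -1 and 59.6% a CCAAT match from -100 to -51, against 2.73% and 12.9% of all promoters. A match describes the letters only and is not a measured binding site.

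**Figure D1:**
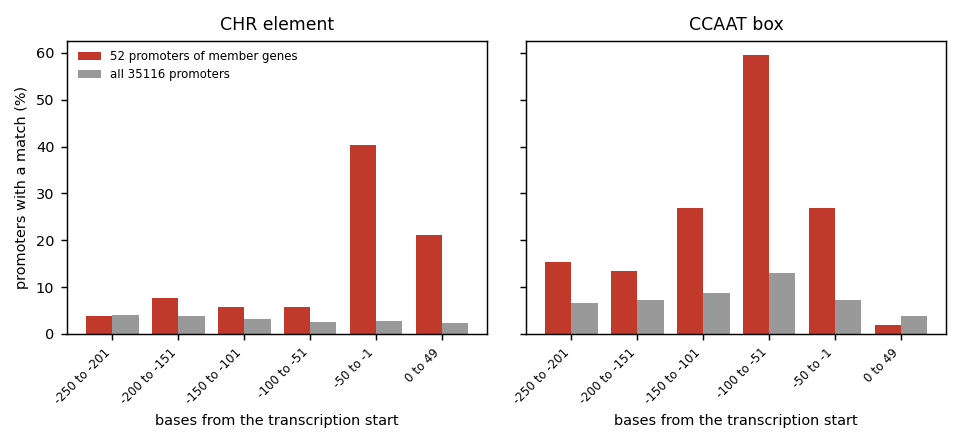
Share of promoters (%, vertical axis) with a CHR match (left, both forms and strands) or a CCAAT match (right, either strand) in bins of 50 bases from the transcription start (horizontal axis), for the 52 promoters of member genes (red) and all 35116 promoters (grey). CHR matches of members peak at 40.4% from -50 to -1 and CCAAT matches at 59.6% from -100 to -51.

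The 110 bases before the start are shown for CDC20, the member with the lowest p in the comparison below, for CCNB2, PLK1 and MKI67 as members with both elements, and for NEK2 as a member with CCAAT boxes and no CHR match. They are given 5′ to 3′ on the strand of the gene, with the letters of the CHR and of CCAAT in capitals, where ATTGG is a CCAAT read from the other strand. They lie at chr1:43358871-43358980 (plus strand) for CDC20, chr15:59105036-59105145 (plus) for CCNB2, chr16:23678779-23678888 (plus) for PLK1, chr10:128126424-128126533 (minus) for MKI67 and chr1:211675622-211675731 (minus) for NEK2 in GRCh38.p14, and no annotated gene overlaps these stretches. The first base of the TTTGAA closest to the start is at -65 in CDC20 and at -29 in CCNB2, PLK1 and MKI67. In MKI67 this TTTGAA shares its last letter with an ATTGG.
CDC20: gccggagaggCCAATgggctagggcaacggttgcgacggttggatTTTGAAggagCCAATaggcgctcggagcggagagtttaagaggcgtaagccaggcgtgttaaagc
CCNB2: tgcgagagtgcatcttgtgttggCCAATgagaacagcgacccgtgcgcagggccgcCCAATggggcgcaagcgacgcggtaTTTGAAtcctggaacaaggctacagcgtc
PLK1: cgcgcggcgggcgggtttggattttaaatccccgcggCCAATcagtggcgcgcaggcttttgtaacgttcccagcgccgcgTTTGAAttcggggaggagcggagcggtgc
MKI67: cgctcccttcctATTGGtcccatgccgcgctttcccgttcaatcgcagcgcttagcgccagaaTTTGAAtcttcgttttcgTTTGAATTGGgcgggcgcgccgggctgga
NEK2: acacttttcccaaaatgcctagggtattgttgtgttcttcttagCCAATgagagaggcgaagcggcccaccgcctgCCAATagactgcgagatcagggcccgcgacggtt

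Between 23570 and 24077 probes were detected on an array, and no spot was saturated. IL-17A replicate 1 was scanned together with all control arrays, and the other IL-17A arrays in another scan, so that scan and treatment overlap in part. All 10 B-cell markers were detected on all 6 arrays, at a summed signal of 44018 to 46391 with IL-17A and 43526 to 44276 in the controls. Their signals differed widely. The bright B-cell receptor genes CD79A and CD79B had mean log2 signals of 13.56 and 12.81 with IL-17A and 13.73 and 12.77 in the controls. The dimmest of the 10 had 3.85 with IL-17A and 3.67 in the controls. Of 8 T- and NK-cell markers with a probe, 7 were detected on all 6 arrays at a summed signal of 223 to 249 with IL-17A and 234 to 246 in the controls, and NCAM1 was detected on none. For monocytes and mesenchymal cells, 1 of 6 markers each was detected on all 6 arrays and 4 of 6 on none. At an adjusted p under 0.05 (limma), 1 of 10 B-cell markers (10%) and 1 of 7 tested T- and NK-cell markers (14.3%) were called, against 7.85% of all genes. PRDM1, a plasma-cell factor among the B-cell markers, was higher with IL-17A (log2 fold change 0.38, adjusted p = 0.0327 from limma). The dim CD3E, at 2.78 with IL-17A and 3.24 in the controls, was lower (-0.46, adjusted p = 0.0401 from limma). Of the 7 tested T- and NK-cell markers, 4 lay above 0 and 3 below. CD2 had 0.51 and CD8A -0.51, neither past the adjusted threshold. The part of these markers in the results was not tested.

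The G2/M and mitosis genes differed little between the groups. Of the 49 members, 1 was called at an adjusted p under 0.05 (limma, Benjamini-Hochberg over all 23945 tested probes), namely CDC20, which was lower with IL-17A. This was 2.04% of the members, where 7.85% of all 14747 genes were called, 4.37% higher and 3.48% lower. None of the 49 reached a 1.5-fold change with an unadjusted p under 0.05, the thresholds in the study's array methods, which 1.92% of all genes passed. The study's statistics section also names a false discovery rate under 0.05. At an unadjusted p under 0.05, 9 members differed, 7 higher and 2 lower with IL-17A, or 18.4% of the members against 31.8% of all genes (16.9% higher and 14.8% lower). These numbers were 8 and 2 with 75th percentile scaling in place of quantiles, or 20.4% of the members against 30.5% of all probes. They were 7 and 4 after normexp background correction (22.4% against 26.9%), and 3 and 0 without normalization between arrays (6.12% against 19.8%). With quantiles the share of all probes was 31.3%. The 2 groups of arrays did not overlap for 19 members, or 38.8%, against 40.7% of all genes. In bulk RNA, fewer cells in G2 or mitosis and less transcript per dividing cell cannot be told apart.

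The sizes were small as well. The log2 fold changes of the members ran from -0.22 to 0.22, with a median of 0.03 and a middle range (first to last quartile) of -0.03 to 0.08. Over all genes the median was 0.0032 and the middle range -0.11 to 0.11. Of the 49 members, 31 lay above 0 and 18 below, where 7509 of all genes lay above 0 and 7238 below. Whether this lean, or the sign counts by role given below, exceeds that of other genes was not tested. Because dim genes scatter more, the members were also set beside the 7138 genes with a mean log2 signal between 7.52 and 12.25, the range that holds the members from the 5th to the 95th percentile. The median size of a log2 fold change, without its sign, was 0.07 in the members, 0.09 in the genes of similar signal and 0.11 in all genes. Of the genes of similar signal, 8.13% had an adjusted p under 0.05 by limma, against 2.04% of the members. At an unadjusted p under 0.05 the shares were 34.7% and 18.4%. The 2 groups of arrays did not overlap for 47.4% of the genes of similar signal, against 38.8% of the members. The 95% interval of the difference lay within 1.5-fold in both directions for each of the 49 members, against 97.7% of the genes of similar signal and 84.2% of all genes. It lay within 1.25-fold for 43 members (87.8%), against 79.3% and 58.8%. The members outside 1.25-fold were CDC25B, CENPF, FOXM1, RACGAP1, SPC24 and TPX2. With scan as a block, 48 of the 49 intervals were within 1.5-fold, the exception being SPC24.

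**Figure D2:**
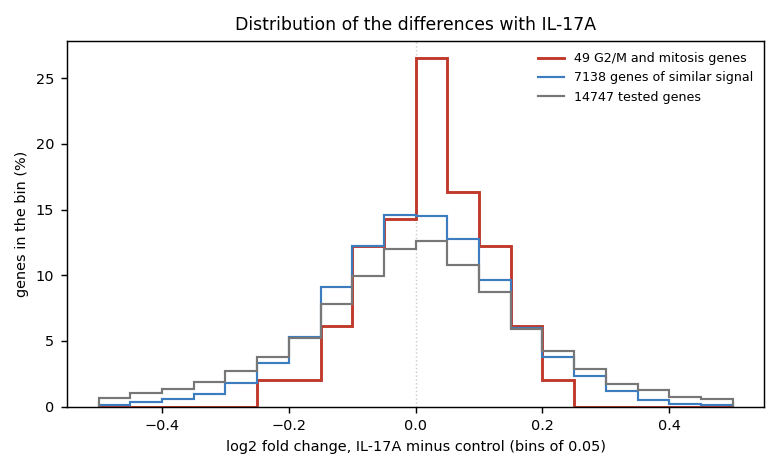
Share of genes (%, vertical axis) by log2 fold change, IL-17A minus control (horizontal axis, bins of 0.05), for the 49 members (red), the 7138 genes of similar signal (blue) and all 14747 tested genes (grey). All members lie between -0.22 and 0.22, and the 2 backgrounds reach further to both sides.

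**Figure D3:**
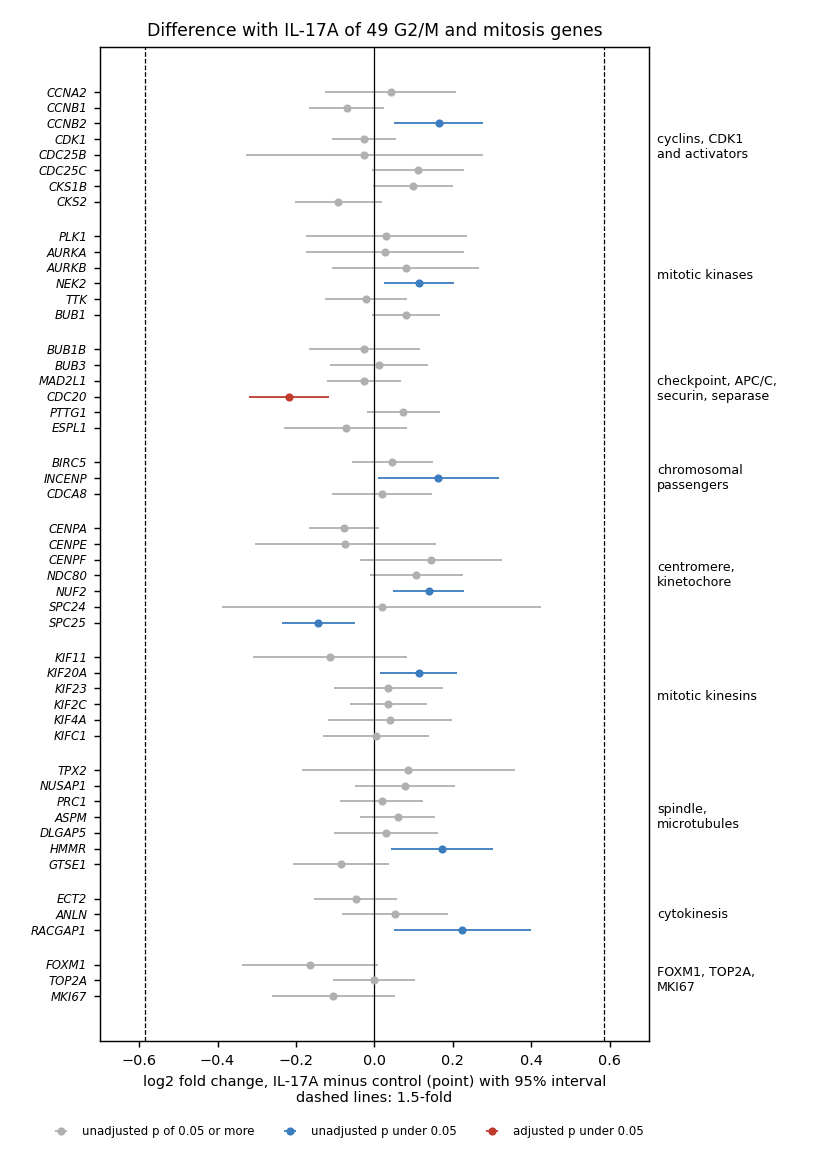
Log2 fold change, IL-17A minus control, of each member (points) with its 95% interval from limma (bars), grouped by role, for 3 IL-17A and 3 control arrays, with 1.5-fold marked by dashed lines. Every interval lies between the dashed lines, CDC20 (red) is the member called after adjustment, and 8 others (blue) had an unadjusted p under 0.05.

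The cyclins, CDK1 and its activators went both ways, with 4 of 8 genes above 0 and 4 below, and 1 with an unadjusted p under 0.05. CDK1, the kinase that drives entry into mitosis, had log2 signals of 10.90, 10.93 and 10.91 on IL-17A replicates 1 to 3 and 10.95, 10.93 and 10.94 on control replicates 1 to 3. Every IL-17A array was lower than every control array, by a margin that rounding hides, and the difference was -0.03 (95% interval -0.11 to 0.06, adjusted p = 0.618 from limma). CCNB1, the main cyclin partner of CDK1 in mitosis, had 11.26, 11.21 and 11.22 with IL-17A and 11.34, 11.29 and 11.28 in the controls. These groups did not overlap either, at a difference of -0.07 (interval -0.17 to 0.03), while the dimmer probe of CCNB1 had 0.11 (interval -0.06 to 0.29). CCNB2, the other common B-type cyclin, had 11.84, 11.79 and 11.75 with IL-17A and 11.60, 11.60 and 11.69 in the controls. All IL-17A arrays were above all controls, and the difference of 0.16 (standard error 0.05, interval 0.05 to 0.28) had an unadjusted p of 0.0132 and an adjusted p of 0.0804 from limma. CCNA2, which acts in S phase and early mitosis, had 9.49, 9.26 and 9.41 with IL-17A and 9.38, 9.35 and 9.30 in the controls, and the groups overlapped. The 2 small CDK-binding proteins had differences of opposite sign. CKS1B had 13.08, 12.98 and 13.02 with IL-17A and 12.92, 12.92 and 12.95 in the controls, a difference of 0.10 (interval -0.0026 to 0.20, adjusted p = 0.167), and its dimmer probe had a log2 fold change of 0.17 (unadjusted p = 0.0061, adjusted p = 0.0595). CKS2 had a log2 fold change of -0.09 (interval -0.20 to 0.02). Neither passed the adjusted threshold. The phosphatases that activate CDK1 had values of -0.03 for CDC25B and 0.11 for CDC25C, and CDC25B varied widely within both groups (SD 0.18 and 0.16, n = 3 each).

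Of the 6 mitotic kinases, 5 were above 0 and none was called after adjustment. PLK1, which acts on spindle poles and mitotic entry, had 7.49, 7.31 and 7.58 with IL-17A and 7.48, 7.47 and 7.34 in the controls. AURKA, the spindle-pole Aurora kinase, had 9.05, 9.21 and 9.20 with IL-17A and 9.22, 8.98 and 9.17 in the controls, and AURKB, the Aurora kinase of the chromosomal passenger complex, had 8.49, 8.24 and 8.41 against 8.32, 8.35 and 8.24. In all 3 kinases the groups overlapped, with differences of 0.03 (interval -0.17 to 0.23), 0.03 (interval -0.17 to 0.23) and 0.08 (interval -0.11 to 0.27). NEK2, a centrosomal kinase, had 8.98, 8.98 and 9.03 with IL-17A and 8.88, 8.90 and 8.88 in the controls. These groups did not overlap, at a difference of 0.11 (standard error 0.04, unadjusted p = 0.0211, adjusted p = 0.101 from limma), and the dimmer NEK2 probe had a log2 fold change of 0.06. The checkpoint kinases TTK and BUB1 had log2 fold changes of -0.02 and 0.08.

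CDC20 was the lowest of the members. CDC20, the activator of the APC/C that the checkpoint restrains, had 8.16, 8.12 and 8.11 on the IL-17A arrays and 8.40, 8.34 and 8.30 on the control arrays. Every IL-17A array was below every control array. The IL-17A arrays averaged 8.13 ± 0.03 (SD, n = 3) and the control arrays 8.35 ± 0.05 (SD, n = 3), which is a log2 fold change of -0.22 (standard error 0.04, interval -0.32 to -0.12, adjusted p = 0.0423 from limma), or -14.0%. The size held when single arrays were left out, at -0.24 to -0.19, but the call did not, with adjusted p-values of 0.0539 to 0.158 in the 6 fits. In these fits the share of all probes called was 0.00835% to 4.11%, against 7.59% with all arrays. A block for the scan gave -0.19 (unadjusted p = 0.0253, adjusted p = 0.163), and a block for the replicate number -0.22 (adjusted p = 0.125). The other 5 measured genes of the checkpoint and of sister separation had differences between -0.07 for ESPL1, the separase that cuts cohesin, and 0.07 for PTTG1, the securin that holds it back. BUB1B, BUB3 and MAD2L1, the checkpoint proteins that bind CDC20 or its inhibitor complex, had -0.03, 0.01 and -0.03, and in each of them the groups overlapped.

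**Figure D4:**
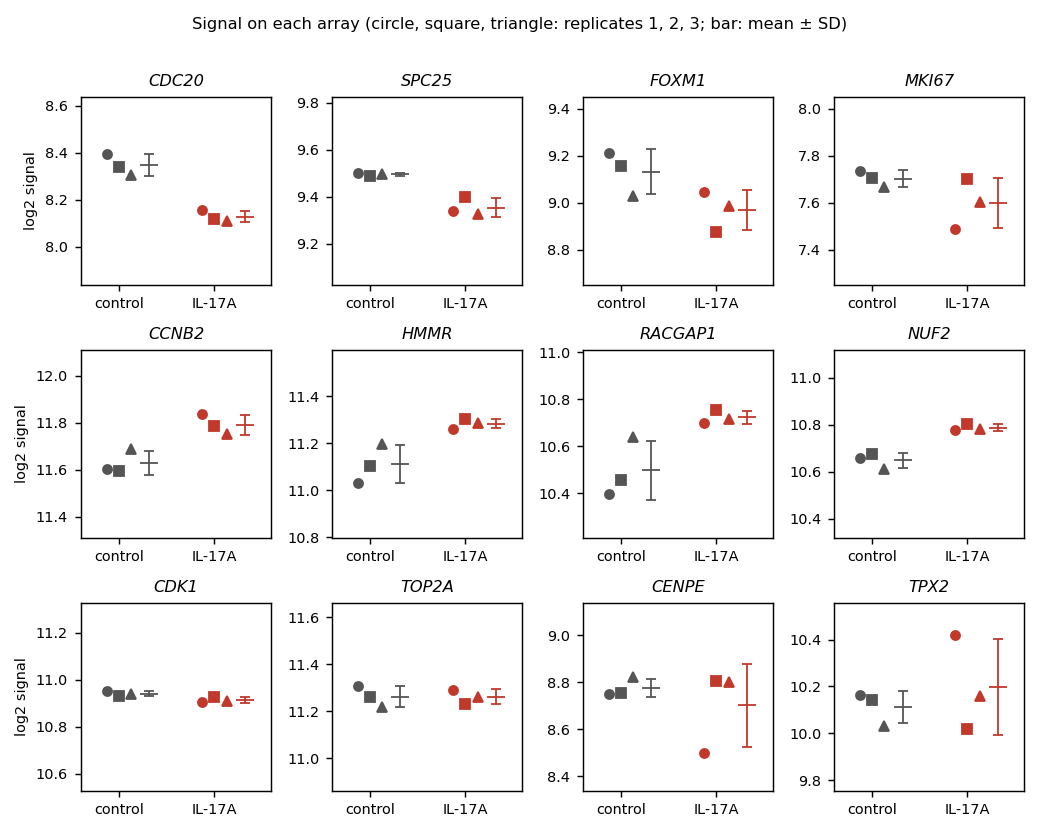
Log2 signal (vertical axes, each spanning 0.8) on the 3 control arrays (grey) and the 3 IL-17A arrays (red) for 12 members, with circles, squares and triangles for replicates 1, 2 and 3 and bars for the mean ± SD. CDC20 and SPC25 are lower and CCNB2, HMMR, RACGAP1 and NUF2 higher on all 3 IL-17A arrays. IL-17A replicate 1 is the lowest array for CENPE and for the MKI67 probe shown, and the highest for TPX2.

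The chromosomal passenger partners of AURKB were all above 0. INCENP, the scaffold of that complex, had 7.79, 7.90 and 7.86 with IL-17A and 7.60, 7.67 and 7.79 in the controls. The groups did not overlap, at a difference of 0.16 (standard error 0.06, unadjusted p = 0.0423, adjusted p = 0.145 from limma). BIRC5 (survivin) and CDCA8 (borealin) had 0.05 and 0.02, with overlapping groups.

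The centromere and kinetochore genes split by sign, even within the NDC80 complex, which grips microtubules. NUF2 had 10.78, 10.80 and 10.78 with IL-17A and 10.66, 10.67 and 10.61 in the controls, a difference of 0.14 (standard error 0.04, unadjusted p = 0.0098, adjusted p = 0.0712 from limma). SPC25 had 9.34, 9.40 and 9.33 with IL-17A and 9.50, 9.49 and 9.50 in the controls, a difference of -0.14 (standard error 0.04, unadjusted p = 0.01, adjusted p = 0.0715). In both genes the groups did not overlap. Their partner NDC80 had a log2 fold change of 0.11 (interval -0.01 to 0.23), again without overlap of the arrays, and SPC24, at a mean log2 signal of 3.44, had 0.02 (interval -0.39 to 0.42). CENPA, the histone that marks centromeres, had -0.08, and CENPF, a kinetochore protein abundant in G2, had 0.14 at its brightest probe and 0.11 at its dimmer one. CENPE, the kinetochore kinesin, had 8.50 on IL-17A replicate 1, below the other 5 arrays at 8.75 to 8.82.

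Of the 6 mitotic kinesins, 5 were above 0. KIF20A, a kinesin of the midzone, had 8.58, 8.50 and 8.53 with IL-17A and 8.43, 8.44 and 8.40 in the controls. The groups did not overlap, at a difference of 0.11 (standard error 0.04, unadjusted p = 0.0311, adjusted p = 0.123 from limma). KIF11, which pushes the spindle poles apart, had -0.11 (interval -0.31 to 0.08), and KIF23, KIF2C, KIF4A and KIFC1 lay between 0.00 and 0.04. The dimmer probe of KIF4A had a log2 fold change of 0.25 (unadjusted p = 0.0138, adjusted p = 0.0824), against 0.04 at the brighter one.

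Among the 7 spindle and microtubule proteins, 6 were above 0, led by HMMR. HMMR, a spindle-assembly protein and hyaluronan receptor, had 11.26, 11.30 and 11.28 with IL-17A and 11.03, 11.11 and 11.20 in the controls. Every IL-17A array was higher, with a difference of 0.17 (standard error 0.05, interval 0.04 to 0.30, unadjusted p = 0.0177, adjusted p = 0.0927 from limma), or 12.7%. TPX2, which activates AURKA on the spindle, had 10.42 on IL-17A replicate 1 and 10.02 to 10.16 on the other 5 arrays, a difference of 0.09 (interval -0.19 to 0.36). PRC1, NUSAP1, ASPM and DLGAP5 had 0.02 to 0.08, and GTSE1 had -0.09.

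In cytokinesis, RACGAP1 had the highest log2 fold change of the 49 members. RACGAP1, the GTPase-activating subunit of centralspindlin, had 10.70, 10.75 and 10.72 with IL-17A and 10.40, 10.46 and 10.64 in the controls. All IL-17A arrays were above all controls, at a difference of 0.22 (standard error 0.07, interval 0.05 to 0.40, adjusted p = 0.0996 from limma), or 16.8%. Without control replicate 3, the control closest to the IL-17A arrays, it was 0.29 (adjusted p = 0.0485), and over the 6 fits that each left out 1 array it ran from 0.17 (without control replicate 1) to 0.29, with adjusted p-values up to 0.261 and this 1 call. ECT2, the exchange factor that RACGAP1 recruits, had -0.05, and ANLN, the scaffold of the contractile ring, had 0.05, both with overlapping groups.

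The regulator and the common proliferation markers were at or below 0. FOXM1, the transcription factor of G2/M genes, had 9.04, 8.87 and 8.98 with IL-17A and 9.21, 9.16 and 9.03 in the controls. The arrays overlapped, since IL-17A replicate 1 was just above control replicate 3, and the difference was -0.16 (standard error 0.07, interval -0.34 to 0.01, adjusted p = 0.178 from limma). MKI67, the gene of the Ki-67 antigen, had 7.49, 7.70 and 7.60 with IL-17A and 7.74, 7.71 and 7.67 in the controls, a difference of -0.10 (interval -0.26 to 0.05), and its other 2 probes had -0.04 and 0.17. TOP2A, the topoisomerase that untangles chromosomes, had 11.29, 11.23 and 11.26 with IL-17A and 11.31, 11.26 and 11.22 in the controls, a difference of -0.00042 (interval -0.10 to 0.10).

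Where a member had several probes, these often disagreed in sign. Among the 10 such members, the probes had log2 fold changes of opposite sign in 6 (ASPM, BUB3, CCNB1, KIF23, MKI67 and PLK1) and of the same sign in 4 (CENPF, CKS1B, KIF4A and NEK2), and in none of the 6 did a probe have an unadjusted p under 0.05.

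Across the arrays, the members did not move as a block. The median deviation of the members from their mean over the 6 arrays was 0.04, 0.02 and 0.01 on IL-17A replicates 1 to 3 and 0.01, -0.02 and -0.0090 on control replicates 1 to 3. The medians of IL-17A replicate 3 and control replicate 1 thus lay side by side. Control replicate 1 was the highest of the 6 arrays for 19 members (38.8%, against 23.4% of the genes of similar signal) and the lowest for 10 (20.4% against 26.0%). IL-17A replicate 1 was the highest for 11 (22.4% against 20.2%) and the lowest for 4 (8.16% against 17.7%). IL-17A replicate 2 was the highest for 9 (18.4% against 25.8%) and the lowest for 13 (26.5% against 21.5%). Within a group the SD of a member was 0.04 with IL-17A and 0.05 in the controls at the median.

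**Figure D5:**
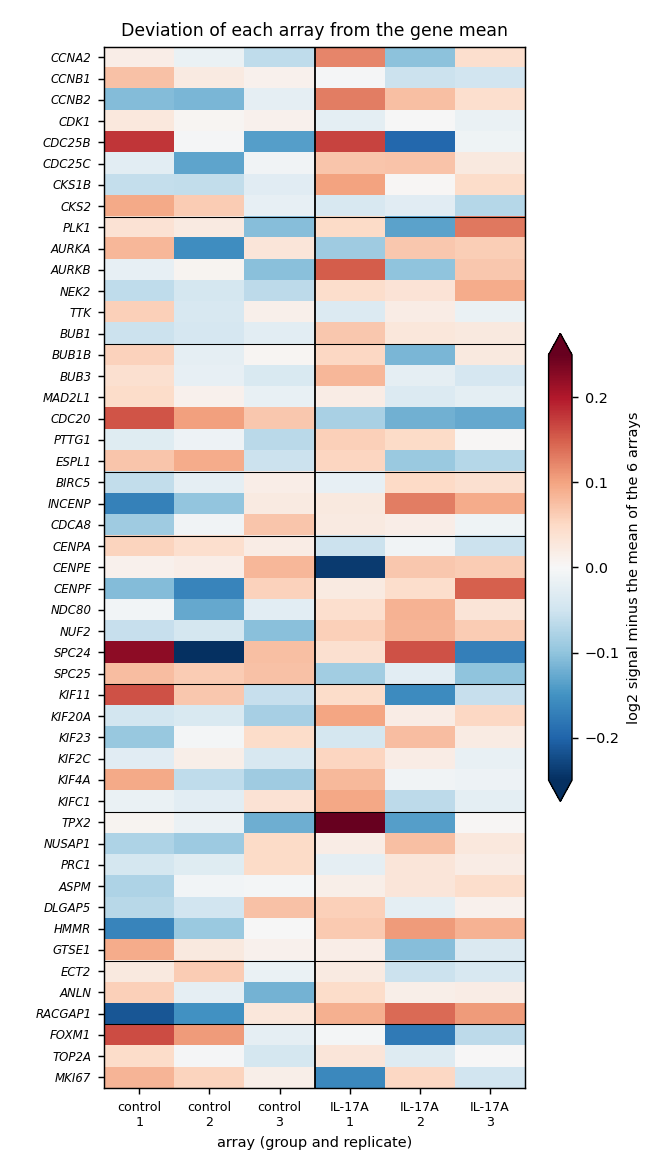
Deviation of each array's log2 signal from the mean of the 6 arrays (colour, red above and blue below, cut at 0.25) for the 49 members (rows, grouped by role) and the 3 control and 3 IL-17A arrays (columns). The columns of a group do not share 1 colour across the members, and CDC20, SPC25, CCNB2 and NUF2 are among the rows that change colour between the groups.

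The members were also compared by scan. Within the scan that held both groups, IL-17A replicate 1 minus the 3 controls had a median of 0.06 over the members, and IL-17A replicates 2 and 3, from the other scan, had 0.01 against the same controls. The sign was the same in both for 36 of the 49 members. Since the same 3 controls enter both differences, the 2 signs are not independent, and this count cannot show agreement between the scans. With scan as a block, where the estimate rests on IL-17A replicate 1, 8 members (16.3%, against 23.3% of all probes) fell under an unadjusted p of 0.05, among them 4 (CCNB2, CDC20, KIF20A and SPC25) of the 9 without the block. CKS1B and TPX2 were added above 0, at 0.15 and 0.31, and CENPE and MKI67 below it, at -0.28 and -0.21, and none of the 8 passed the adjusted threshold. How much of these values comes from the scan and how much from that 1 array cannot be told apart. The MKI67 value is that of its brightest probe. At its next probe IL-17A replicate 1 had 7.67, above the controls at 7.59, 7.53 and 7.58. At its dimmest probe IL-17A replicate 1 had 4.42 and the controls 4.35, 4.40 and 4.52.

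Log2 fold changes were also set out by promoter element. The 29 members with both a CHR and a CCAAT match had a median log2 fold change of 0.02, and the 13 with an entry but not both had 0.05. Of the 776 tested genes with both elements, 7.99% had an adjusted p under 0.05, against 7.62% of the 10874 others with an entry.

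Further genes of mitosis outside the list were counted in the same way. Of 120 tested genes in 5 lists, 7 were called at an adjusted p under 0.05, 2 higher and 5 lower with IL-17A, or 5.83% against 7.85% of all genes, with a median log2 fold change of 0.00072 and none past 1.5-fold with an unadjusted p under 0.05. Among 17 APC/C subunits and regulators, UBE2S, the enzyme that extends ubiquitin chains on APC/C substrates, was lower, at 11.23 with IL-17A and 11.54 without it on the log2 scale (difference -0.31, adjusted p = 0.0362 from limma). The other APC/C activator FZR1 had a difference of -0.21 (adjusted p = 0.0535), and the subunits ANAPC1 and ANAPC11 had 0.22 and 0.10 (adjusted p = 0.111 and 0.125). Among 20 condensin and cohesin genes, the condensin subunit NCAPD3 (-0.22, adjusted p = 0.0346) and the cohesin acetyltransferase ESCO2 (-0.22, adjusted p = 0.0457) were lower. The cohesin subunit RAD21 had 0.24 (adjusted p = 0.0752) and WAPL, which releases cohesin, 0.17 (adjusted p = 0.0891).

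Of 30 further centromere and kinetochore genes, CENPT was higher, at a dim 4.55 against 4.16 (difference 0.39, adjusted p = 0.0471 from limma). DSN1, a subunit of the kinetochore's MIS12 complex, had 0.15, and the centromere proteins CENPB and CENPM had -0.23 and -0.15, none of them past the adjusted threshold. None of 23 further kinesin and spindle genes was called after adjustment by limma, the tool run on this list. At an unadjusted p under 0.05 there were 7, 4 higher and 3 lower, or 30.4%, close to the 31.8% of all genes. Those with the lowest p were CIT, a kinase of cytokinesis (0.21), and CKAP2L, a spindle protein (0.31), above 0, and the kinesin KIF20B (-0.18) and the spindle protein FAM83D (-0.14) below it.

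The regulators of these promoters and of mitotic entry included 3 called genes of 30 (10.0%, against 7.85% of all genes). TFDP1, the partner of E2F factors, was lower (-0.28, standard error 0.04, adjusted p = 0.0314 from limma), and so was PKMYT1, a kinase that inhibits CDK1 (-0.30, standard error 0.06, adjusted p = 0.045). LIN54, the MuvB subunit that contacts the CHR, was higher (0.23, standard error 0.04, adjusted p = 0.0349), and CCNF, the F-box protein cyclin F, had 0.36 with overlapping groups (adjusted p = 0.119). MYBL2, which encodes B-MYB, had -0.32 (standard error 0.09, unadjusted p = 0.0133, adjusted p = 0.0807).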

How the data were processed

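Cy3-labeled RNA of 3 IL-17A and 3 control samples of SU-DHL-2 cells was hybridized, 1 sample to an array. The authors' scanner files, made with Agilent Feature Extraction 11.0.1.1, hold a background-subtracted linear intensity for each spot, not yet normalized between arrays, and flags. The series table that the authors deposited gives log2 values after quantile normalization and served as an alternative. Samples were grouped by their titles.

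Control spots were left out, as were non-uniform spots (4 to 25 on an array), which left 49 probe values missing. Intensities below 1 were set to 1, log2 values of replicate spots were averaged (34127 probes), and quantile normalization followed. Detection on an array required at least 50% of a probe's spots to be positive, significant and well above background, and the 23945 probes detected on at least 3 of 6 arrays were tested. Probes were named through RefSeq accessions (GRCh38.p14 names), which gave 25771 probes 1 of 19740 genes. Groups were compared by limma 3.58.1 (R 4.3.3), two-sided, with Benjamini-Hochberg adjustment. Each interval is limma's 95% interval. The procedure was tested on simulated data. The number of arrays limits the precision.

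The members and lists were chosen with earlier results of these data known. The named genes were 9 fixed members (CDK1, CCNB1, CCNA2, PLK1, AURKA, AURKB, FOXM1, MKI67 and TOP2A), the 10 members with the lowest p, the 3 highest and 3 lowest by log2 fold change, members past 1.5-fold with a p under 0.05, members whose probes differed in sign with a p under 0.05 (none), those not tested, and in each further list the 2 genes with the lowest p in each direction. Per-array values of CENPE and TPX2, and MYBL2, were added after their values were seen. Alternatives were other normalizations and background corrections, filters, tests and blocks, another probe rule and each array left out. Probe sequences were not used here, and 1 cell type marker is not reported here.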

Additional observations from a re-analysis of the deposited data

How the results depend on the processing

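The count of members with an adjusted p under 0.05, 1 in the comparison as reported, was 0 without normalization between arrays, 3 with normexp (offset 50), 6 with an intensity trend in limma (CCNB2, HMMR, NUF2 and RACGAP1 higher, CDC20 and SPC25 lower), 2 with the methods' t-test, 0 with the replicate block and 0 with scan as a block. It was 0 to 1 with single arrays left out, CDC20 being lost without each of the 6 and RACGAP1 gained without control replicate 3. Over all probes the share called went from 7.59% to 0.192% without normalization, 8.5% with normexp, 16.1% with the trend and 5.21% with the methods' t-test. It went to 0.2% with scan as a block, 0.0167% with the replicate block and 0.00835% to 4.11% with single arrays left out (4.11% without control replicate 3). The count at an unadjusted p under 0.05 was reported as 9, or 18.4% of the members against 31.3% of all probes. It was 3 without normalization (6.12% against 19.8%) and 14 with no detection filter (28.6% against 24.5%). With the trend it was 16 (32.7% against 33.7%), and with the methods' t-test 14 (28.6% against 28.8%). The members' share was thus not clearly lower in these last 3 settings. With single arrays left out the count was 3 to 11. It was 3 without control replicate 2 (6.12% against 21.1%) and 4 without IL-17A replicate 3 (8.16% against 23.2%). It was 5 without control replicate 1 (10.2% against 24.4%) and 11 without control replicate 3 (22.4% against 31.3%). The median log2 fold change of 0.03 was 0.065 without normalization, 0.057 with scan as a block, 0.057 within the scan and 0.013 to 0.036 with single arrays left out. No alternative brought a member past 1.5-fold with an unadjusted p under 0.05, so that none could pass a fold threshold of 2. Of 342 values of the 19 named members with a probe, 324 kept their side of an adjusted p of 0.05, 10 lost it (all CDC20) and 8 gained it, and none reversed with a call. The methods' t-test is not among these 342 values, and with it NUF2 was called higher beside CDC20 lower. Same-numbered arrays did not deviate together, at r = -0.087, -0.0022 and -0.047, which cannot show whether the samples were prepared in pairs. The replicate block changed the call of CDC20 and of no other named member. The causes were not tested. Naming probes by a gene name column was not run, as the files hold no such column. SPC24, with a mean log2 signal of 3.44, had the widest interval of the members.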
